A study of Mus musculus with 24 samples.

Results

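Nidogen 1 (Nid1), nidogen 2 (Nid2), perlecan (Hspg2), agrin (Agrn), the alpha 1 chains of collagens XVIII (Col18a1) and XV (Col15a1) and nephronectin (Npnt) are secreted partners of the laminin and collagen IV networks in basement membranes. They were taken by gene symbol from a table of 55487 genes measured by bulk RNA sequencing of whole kidney, and 7 of 7 were found and passed the filter on low counts. None of them differed past the threshold between Nbl1 heterozygotes and wild types. Some of them were high or low in the same kidneys, foremost Col18a1 and Col15a1. Between the batches 6 of 7 differed, beside 63.5% of all genes.

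All mice were males with X-linked Alport syndrome (XLAS) on the B6 background, with kidneys collected at 15 weeks of age. The HET group comprised 13 mice heterozygous for Nbl1, with 7 in batch 2 and 6 in batch 1. The WT group comprised 11 mice wild type for Nbl1, with 5 in batch 2 and 6 in batch 1. Both groups thus carried the disease of the collagen IV alpha 5 chain, and there was no group without it. The titles name Nbl1 and Col4a5. Col4a5 RNA was detected in both groups, at 17.3 to 27.3 CPM (counts scaled to library size) in HET and 22.1 to 27.2 CPM in WT. The sources used here do not give the alleles of either gene, the cells in which Nbl1 was altered or what a batch stands for.

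Basement membranes are sheets built on a laminin polymer and a collagen IV network. Nidogens bind both and link them, perlecan and agrin add long heparan sulfate chains and reach to cell surface receptors, and collagens XVIII and XV carry glycosaminoglycan chains and release endostatin-type fragments. In the kidney, agrin is the main heparan sulfate proteoglycan of the glomerular basement membrane, perlecan is prominent in the mesangial matrix and in vascular and tubular basement membranes, and nephronectin is a ligand of the integrin made of Itga8 and Itgb1. Alport syndrome removes the collagen IV chains that form the mature glomerular network.

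The libraries held 36380374 to 50746652 counts in batch 2 and 29551337 to 33019871 in batch 1, and the 7 genes had between 715 and 12096 counts in a library. The kidney tubule markers Aqp2, Umod, Slc12a1, Slc34a1 and Slc12a3 were detected in every library. Nbl1, the targeted gene, was at 5.32 ± 1.68 CPM across the 13 HET kidneys and 8.42 ± 3.15 CPM across the 11 WT kidneys (mean ± SD). In batch 1, 3 libraries were doubted from earlier results of these data. The library labelled HET replicate 6, at 9.24 CPM, was above every WT library of batch 1, and the library labelled WT replicate 2, at 3.62 CPM, was below every HET library. The library labelled WT replicate 1, at 5.41 CPM, lay between the other 5 HET libraries (3.86 to 4.89 CPM) and the other 4 WT libraries (6.996 to 7.78 CPM). They were kept, and results are also given without these 3. In batch 2, HET replicate 8 at 7.82 CPM was above WT replicate 11 at 6.999 CPM, and both were kept throughout. In batch 2 the ribosomal RNA gene CT010467.1 was at a median of 134181 CPM in HET (79541 to 219983) and 62254 CPM in WT (48253 to 119559), with an exact two-sided permutation p of 0.0290 and 4 of 7 HET libraries above the highest WT library. In batch 1 no library exceeded 1928 CPM of it. In batch 1 the 7SL RNA gene Rn7s1 took 20.03% to 21.97% of each library's TPM, a unit of transcripts scaled to gene length and library total.

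The 7 genes lie on 5 chromosomes, and their positions are from GENCODE M21 on GRCm38. Nid1 (ENSMUSG00000005397) is at chr13:13437551-13512269 on the plus strand, and Nid2 (ENSMUSG00000021806) at chr14:19751265-19811787 on the plus strand. Hspg2 (ENSMUSG00000028763) is at chr4:137468769-137570630 on the plus strand, and its longest coding transcript has 97 exons. Agrn (ENSMUSG00000041936) is at chr4:156165290-156197488 on the minus strand, and Col15a1 (ENSMUSG00000028339) at chr4:47208161-47313167 on the plus strand. Col18a1 (ENSMUSG00000001435) is at chr10:77052178-77166548 on the minus strand, and Npnt (ENSMUSG00000040998) at chr3:132881745-132950291 on the minus strand. Hspg2, Agrn and Col15a1 share chromosome 4 with Nbl1. Hspg2 is the nearest of them, 1511653 bases from Nbl1 with 27 protein-coding genes between them. Of the genes that overlap them, 3 had counts that could matter and the other 4 had mean counts below 1. Col18a1 shares 8825 bases of its span with Slc19a1, which had 26.0% of the mean Col18a1 count. Nid2 shares 437 bases with Rtraf, which had 195% of the mean Nid2 count. Nid1 shares 8063 bases with the antisense gene Gm48682, at 0.781% of the Nid1 count. With the strand setting of the counting not given in the sources used here, reads in these overlaps cannot be told apart.

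The sequences upstream of the transcription start are shown for 4 genes. Col18a1 and Col15a1 were the closest pair in co-variation, and Hspg2 and Agrn were among the genes whose values lay lower in HET in batch 2. They are RefSeq windows on GRCm38.p6, read 5′ to 3′ on each gene's strand and ending before the annotated start. The windows are chr10:77166549-77166780 (minus) for Col18a1, chr4:47207762-47208011 (plus) for Col15a1, chr4:137468553-137468768 (plus) for Hspg2 and chr4:156197489-156197738 (minus) for Agrn. Capitals mark matches on either strand to the GC box (GGGCGG), the CCAAT box (CCAAT), the TATA box (TATAAA) and the AP-1 site (TGACTCA).
Col18a1: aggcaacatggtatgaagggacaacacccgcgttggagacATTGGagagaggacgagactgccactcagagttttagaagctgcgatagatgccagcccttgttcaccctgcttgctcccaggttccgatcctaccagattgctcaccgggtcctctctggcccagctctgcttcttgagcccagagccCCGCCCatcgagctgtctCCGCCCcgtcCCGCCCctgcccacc
Col15a1: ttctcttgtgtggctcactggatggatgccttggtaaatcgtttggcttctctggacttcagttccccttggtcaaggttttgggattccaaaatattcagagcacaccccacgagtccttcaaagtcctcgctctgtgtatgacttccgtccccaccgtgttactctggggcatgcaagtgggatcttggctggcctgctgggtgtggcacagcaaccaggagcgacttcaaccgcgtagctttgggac
Hspg2: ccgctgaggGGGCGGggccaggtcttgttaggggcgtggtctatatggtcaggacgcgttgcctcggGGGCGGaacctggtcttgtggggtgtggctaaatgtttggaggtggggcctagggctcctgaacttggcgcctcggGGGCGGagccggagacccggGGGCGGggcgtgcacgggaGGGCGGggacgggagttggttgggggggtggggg
Agrn: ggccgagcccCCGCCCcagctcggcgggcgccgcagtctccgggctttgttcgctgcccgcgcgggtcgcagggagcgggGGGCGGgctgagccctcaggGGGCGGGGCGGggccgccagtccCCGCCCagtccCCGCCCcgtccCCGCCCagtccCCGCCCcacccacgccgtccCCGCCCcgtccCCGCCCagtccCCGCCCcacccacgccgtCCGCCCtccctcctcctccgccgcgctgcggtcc
The windows of Hspg2 and Agrn are rich in G and C, at 70.8% and 83.6%, with 5 and 12 GC boxes, of which adjoining matches can overlap. The median of all windows was 52.4%. The Agrn window is from the first of 2 RefSeq starts, and that of the second held 2 GC boxes in 60.8% G and C. The Col18a1 window, from the first of 2 RefSeq starts, held 3 GC boxes and 1 CCAAT box in 60.8% G and C. Col15a1, its closest partner in expression, had none of the 4 motifs in 53.6% G and C. Among 32851 RefSeq windows of 250 bases, 32.7% held a GC box, 33.8% a CCAAT box, 12.4% a TATA box and 4.46% an AP-1 site. The windows of Hspg2, Col18a1 and Nid1 were shorter, at 216, 232 and 199 bases. Of the other members with a window, Nid1 had 1 GC box and 1 CCAAT box, and Npnt had 3 GC boxes at its first start.

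Per unit of transcript length, nephronectin and collagen XVIII were the most abundant of the set, and nidogen 2 the least. Levels are given in TPM, which correct for transcript length. Over the 24 libraries Npnt averaged 45.7 TPM, Col18a1 44.9, Agrn 30.9, Col15a1 17.9, Nid1 17.9, Hspg2 14.7 and Nid2 7.52. Nid2 was last in 24 of 24 libraries and Agrn in place 3 in 24 of 24. Npnt and Col18a1 were not separated, since Npnt was above Col18a1 in 13 of 24 libraries, made up of 10 of 12 in batch 2 and 3 of 12 in batch 1. Col15a1 and Nid1 were not separated either, with Col15a1 above in 13 of 24. Nid1 was above Hspg2 in 21 of 24. The 2 nidogens therefore stood apart, with a mean Nid1 level of 24.9 ± 3.69 TPM in batch 2 and 10.8 ± 1.40 TPM in batch 1 (SD, n = 12 each), and a mean Nid2 level of 10.5 ± 2.04 TPM in batch 2 and 4.49 ± 0.760 TPM in batch 1 (SD, n = 12 each). TPM values cannot be compared between the batches, because Rn7s1 and CT010467.1 took different shares of the total.

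**Figure D1:**
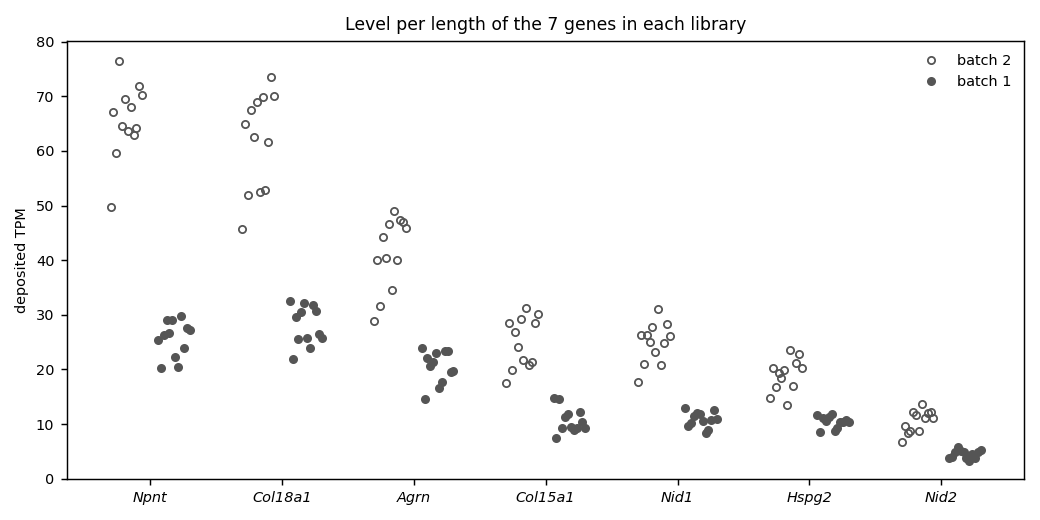
Deposited TPM (y axis, linear from 0) of each gene in each library, with genes in order of their mean and batch 2 (open) left of batch 1 (filled). Nid2 is lowest in every library, the clouds of Npnt and Col18a1 overlap, and so do those of Col15a1 and Nid1.

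Most of the genes varied from mouse to mouse somewhat less than the median gene. The biological coefficient of variation is edgeR's estimate of the spread between mice beyond counting noise, with genotype and batch as additive terms. Each value is drawn toward those of genes with similar counts. The coefficient was 7.03% for Npnt, 8.34% for Agrn, 8.35% for Col18a1 and 8.57% for Hspg2. For Nid2 it was 9.02%, for Nid1 9.12% and for Col15a1 13.3%. The median of all tested genes, whatever their level, was 10.7%. The share of genes with a lower value was 21.6% for Npnt, between 35.2% and 41.4% for Agrn, Col18a1, Hspg2, Nid2 and Nid1, and 59.7% for Col15a1. Over the 24 libraries, batches included, the highest CPM was 1.72 times the lowest for Col15a1, 1.62 for Hspg2, 1.60 for Nid1 and Npnt, 1.5003 for Nid2, 1.44 for Col18a1 and 1.35 for Agrn.

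HET was compared with WT to ask whether carrying 1 altered copy of Nbl1, whose product binds and blocks BMP family ligands outside the cell, moves these genes in Alport kidneys. Counts were scaled by TMM and tested with edgeR's quasi-likelihood test with batch as a covariate. Adjustment over all genes tested followed Benjamini and Hochberg, and genes under 0.05 were called. Of the members 0 of 7 were called, and of 18339 genes tested 0 were called (0%). DESeq2 and limma voom also called 0 genes. Before adjustment, 755 genes (4.12%) and 0 members had p under 0.05. By DESeq2 and by limma voom the unadjusted counts were 811 and 785 genes. Since these are bulk samples, fewer cells of a type and less RNA per cell cannot be told apart, here or below.

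Over all mice the HET level as a percentage of WT, with its 95% interval, was 101% for Nid1 (93.6% to 108%), 97.4% for Nid2 (90.5% to 105%), 96.3% for Hspg2 (90.1% to 103%) and 95.1% for Agrn (89.1% to 101%). It was 100.2% for Col18a1 (93.8% to 107%), 101% for Col15a1 (90.2% to 113%) and 103% for Npnt (97.4% to 108%). On the log2 scale the values lay between -0.07 ± 0.05 (SE) for Agrn and 0.04 ± 0.04 for Npnt, with an edgeR p of 0.997 after adjustment for every member. Over the 7 members the median was 0.002, beside 0.010 over all genes tested, and 3 of 7 were below 0, beside 43.7% of genes. An exact two-sided permutation of genotype within batch gave the smallest p for Agrn, 0.146, and the largest for Col18a1, 0.979. Without the 3 doubted libraries, Agrn was at -0.12 (edgeR p = 0.0303 before adjustment and 0.922 after it), and 0 of 7 members were called.

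**Figure D2:**
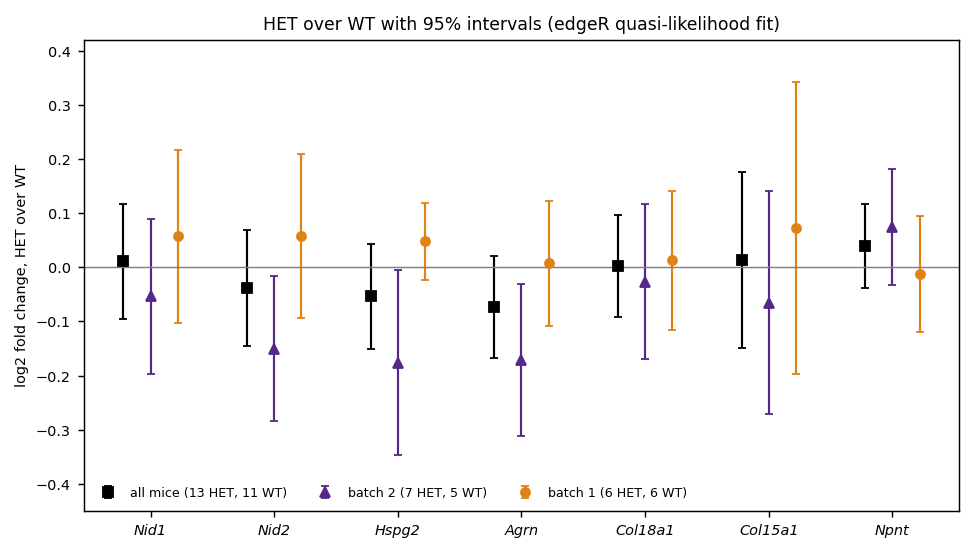
Log2 fold change of HET over WT (y axis) for each gene with its 95% interval, over all mice (squares), in batch 2 (triangles) and in batch 1 (circles). All-mice intervals cross 0 for every gene, and in batch 2 those of Nid2, Hspg2 and Agrn lie below 0 before adjustment.

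Within batches, the nidogens were near equal between genotypes in batch 1, and Nid2 lay lower in HET in batch 2 without passing the threshold. Nid1 had 89.0 CPM at the lowest, 108 at the median and 112 at the highest in HET kidneys of batch 2, against 104, 113, 109, 116 and 92.1 CPM in WT kidneys of batch 2. In batch 1 Nid1 had a lowest, median and highest of 85.2, 92.4 and 103 CPM in HET, and of 72.3, 88.0 and 102 CPM in WT. The HET and WT ranges overlapped in both batches, and exact two-sided permutation gave p = 0.631 for batch 2 and 0.481 for batch 1.

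Nid2, which binds the same partners as Nid1 but was sparser in the kidney RNA, had a lowest, median and highest of 25.2, 29.0 and 32.4 CPM in HET kidneys of batch 2. The WT kidneys of batch 2 had 32.2, 33.7, 29.6, 30.2 and 30.4 CPM. The ranges overlapped, although 5 of 7 HET kidneys were below the lowest WT kidney. HET was at 90.1% of WT (82.1% to 98.9%), for which edgeR gave p = 0.0300 before adjustment and 0.592 after it. The exact two-sided permutation p was 0.0669. In batch 1 Nid2 had a lowest, median and highest of 24.21, 26.4 and 31.2 CPM in HET and 22.5, 25.8 and 28.9 CPM in WT, again overlapping.

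Perlecan and agrin also lay lower in HET in batch 2, again short of the threshold. Hspg2 had 137 CPM at the lowest, 182 at the median and 196 at the highest in HET kidneys of batch 2. The WT kidneys of batch 2 had 211, 216, 179, 205 and 176 CPM. Of the 7 HET kidneys, 2 were below every WT kidney and none above the highest. HET was at 88.5% of WT (78.6% to 99.7%), with edgeR p = 0.0445 before adjustment and 0.602 after it. The exact two-sided permutation p was 0.105. HET replicate 9 was the lowest library of all 24 for Hspg2. Without it the log2 fold change in batch 2 was -0.12 instead of -0.18, and edgeR p before adjustment was 0.0586.

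In batch 1 Hspg2 sat in a narrow band. It had a lowest, median and highest of 199, 209 and 222 CPM in HET and of 199, 202 and 206 CPM in WT, and 3 of 6 HET kidneys were above every WT kidney. The SD was 8.05 CPM in HET and 2.43 CPM in WT. The exact two-sided permutation p was 0.0736, and HET was at 103% of WT (98.4% to 109%). The interaction of genotype with batch, which asks whether the HET against WT difference differed between batches, had a log2 value of -0.21 ± 0.09 (SE) for Hspg2. The edgeR p was 0.0248 before adjustment and 0.576 after it, and with each library left out it was at most 0.0535 before adjustment. Hspg2 was the only one of 7 members at an unadjusted p under 0.05 in that test, beside 8.20% of all genes, and 0 genes (0%) passed after adjustment by edgeR or by DESeq2. DESeq2 put 1573 genes at an unadjusted p under 0.05, and edgeR 1504.

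Agrn, the agrin gene, had 147 CPM at the lowest, 174 at the median and 194 at the highest in HET kidneys of batch 2. The WT kidneys of batch 2 had 198, 199, 189, 195 and 176 CPM. The ranges overlapped, with 4 of 7 HET kidneys below the lowest WT kidney. HET was at 88.8% of WT (80.5% to 97.9%), with edgeR p = 0.0196 before adjustment and 0.585 after it. The exact two-sided permutation p was 0.0505. In batch 1 the genotypes coincided, with a lowest, median and highest of 152, 172 and 186 CPM in HET and of 155, 172 and 187 CPM in WT, and an exact permutation p of 0.903.

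Counted together, 3 of 7 members in batch 2 were lower in HET at an unadjusted p under 0.05, beside 4.20% of the 17955 genes tested there, and 8.28% in either direction. Each of the 3 lost that level when WT replicate 8 was left out (p = 0.0964 for Nid2, 0.128 for Hspg2 and 0.0507 for Agrn by edgeR before adjustment), which gave the highest p for each. After adjustment 0 of 7 were called by edgeR's quasi-likelihood test, which called 1 gene in all (0.00557%), while DESeq2 called 27 genes and 0 members. In batch 1, 0 of 7 members and 2.82% of 18494 genes were at an unadjusted p under 0.05, and 0 genes (0%) were called by edgeR and 1 by DESeq2, which put 550 genes at an unadjusted p under 0.05. In batch 2, 6 of 7 members had a log2 fold change below 0, beside 49.9% of genes, with a median of -0.07. In batch 1, 1 of 7 did, beside 50.6% of genes, with a median of 0.05.

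CT010467.1, the ribosomal RNA gene, was higher in HET in batch 2, where these 3 genes lay lower. With its log2 CPM as a covariate, a fit added after the data were examined, the batch 2 log2 fold changes were -0.24 for Nid2, -0.28 for Hspg2 and -0.18 for Agrn, and 0 of 7 members were called. The summed level of the adipose list, 8 markers of the fat that surrounds a kidney, was at a median of 97.1 CPM in HET (48.6 to 275) and 237 CPM in WT (52.4 to 279) in batch 2. There 8 of 8 of its genes had a log2 fold change below 0, but 0 were at an unadjusted p under 0.05 by edgeR. In those libraries no adipose marker was at 0 in every library of a genotype, and 1 was at 0 in some library of each. The summed endothelial list of 10 markers was at a median of 661 CPM in HET (614 to 693) and 641 CPM in WT (633 to 688) in batch 2, with no marker at 0 in any library. The fit with CT010467.1 as a covariate cannot tell it apart from genotype, because it was itself higher in HET in these libraries. The part of fat or of ribosomal RNA in the values of Nid2, Hspg2 and Agrn was not tested. The macrophage list (8 of 8 below 0, median -0.10) and the fibroblast list (9 of 10 below 0, median -0.07) also lay lower in HET in batch 2, with 0 genes called.

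For collagen XVIII and collagen XV the genotypes were close in both batches. Col18a1, the source of endostatin, had a lowest, median and highest of 188, 215 and 238 CPM in HET kidneys of batch 2. The WT kidneys of batch 2 had 206, 235, 233, 227 and 194 CPM. In batch 1 it had 171, 196 and 212 CPM in HET and 165, 195 and 203 CPM in WT. The ranges overlapped in both batches, and exact two-sided permutation gave p = 0.885 for batch 2 and 0.861 for batch 1.

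Col15a1, a collagen of basement membranes that face the interstitium, had a lowest, median and highest of 73.7, 86.3 and 99.5 CPM in HET kidneys of batch 2. The WT kidneys of batch 2 split into 2 at 74.4 and 73.7 CPM and 3 at 94.7, 98.9 and 98.6 CPM. In batch 1 it had 57.8, 76.6 and 95.8 CPM in HET and 61.8, 71.5 and 82.2 CPM in WT. Exact two-sided permutation gave p = 0.698 for batch 2 and 0.641 for batch 1, and the interval of the all-mice difference was the widest of the set.

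Npnt was the only member with a positive log2 fold change in batch 2. It had a lowest, median and highest of 177, 205 and 220 CPM in HET kidneys of batch 2, against 180, 189, 198, 185 and 192 CPM in WT kidneys of batch 2. Of the HET kidneys, 4 of 7 were above every WT kidney and 1 was below every one. HET was at 105% of WT (97.7% to 114%), and the exact two-sided permutation p was 0.104. In batch 1 the values were 140, 150 and 162 CPM in HET and 138, 149 and 168 CPM in WT, with an exact permutation p of 0.900.

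**Figure D3:**
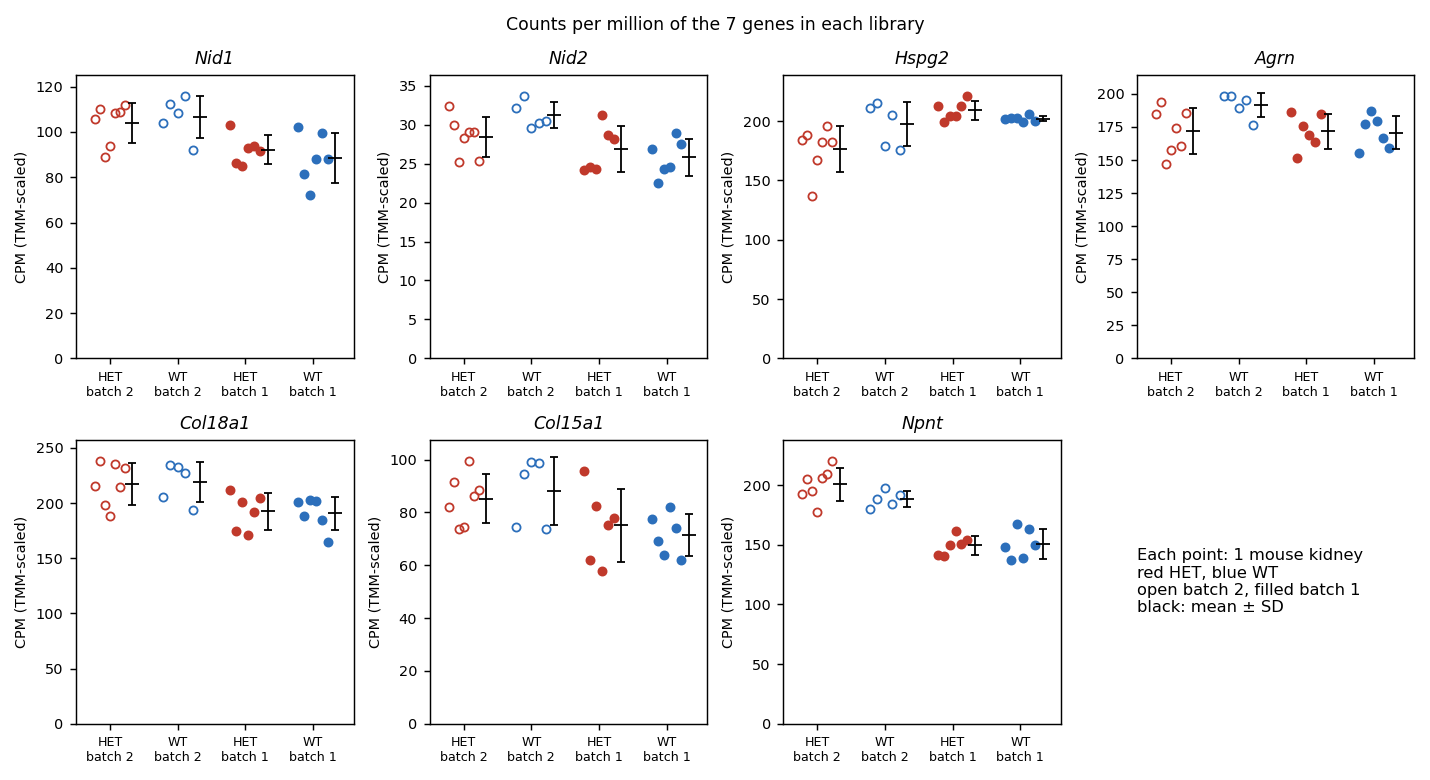
TMM-scaled CPM (y axis, linear from 0) of each gene in each library, with HET (red) left of WT (blue), batch 2 (open) left of batch 1 (filled), and mean ± SD in black. Genotypes overlap in every panel, while Npnt of batch 2 lies wholly above batch 1 (177 to 220 against 138 to 168 CPM).

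The larger separation was between the batches. Batch 2 was compared with batch 1 in the same fit with genotype as a covariate, and 6 of 7 members were called, beside 63.5% of all genes. The 5 higher members stand beside 32.6% of genes and the 1 lower member beside 30.9%. Npnt was higher in batch 2 at 130% of batch 1 (123% to 137%; edgeR adjusted p = 5.28e-10), with all 12 libraries of batch 2 above all 12 of batch 1. Col15a1 was higher at 118%, Nid1 at 116%, Col18a1 at 114% and Nid2 at 113%. Hspg2 alone was lower, at 90.2% (84.4% to 96.5%; edgeR adjusted p = 0.00737). In HET it averaged 177 ± 19.6 CPM in batch 2 and 209 ± 8.05 CPM in batch 1 (SD, n = 7 and 6), and the libraries of the batches did not overlap. In WT it averaged 197 ± 18.5 CPM in batch 2 and 202 ± 2.43 CPM in batch 1 (SD, n = 5 and 6), and they overlapped. Agrn was at 105% and was not called (adjusted p = 0.143 by edgeR), but was called without HET replicate 9 (adjusted p = 0.0458 by edgeR). The share of all genes whose libraries do not overlap between the batches was not measured. The gaps of Npnt, and of Hspg2 in HET, therefore do not set these genes apart. The median log2 difference of all genes was 0.03 and of the members 0.19. A share of 6 in 7 stands beside a background in which most genes were called, and the batch is confounded with depth and with the ribosomal and 7SL RNA content of the libraries, whose parts cannot be told apart.

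The members were next set against the level of Nbl1 itself, with batch and genotype as covariates. The slope is the change in log2 CPM of a gene for each unit of log2 CPM of Nbl1. All 7 slopes were above 0, from 0.07 for Npnt to 0.15 for Hspg2, while 55.3% of genes had a slope below 0. Of the members 0 of 7 were called, beside 2 genes (0.0109%). Hspg2 (slope 0.15 ± 0.05 SE, p = 0.00675 before adjustment and 0.323 after it) and Agrn (0.14 ± 0.05 SE, p = 0.0103 before adjustment and 0.336 after it) were at an unadjusted p under 0.05 by edgeR's quasi-likelihood test, beside 4.80% of genes in that direction and 11.2% in either. By DESeq2, 22 genes were called. Without the 3 doubted libraries the slopes were 0.29 for Nid1, 0.26 for Hspg2, 0.24 for Col18a1, 0.23 for Agrn, 0.29 for Col15a1, 0.10 for Npnt and 0.06 for Nid2. None of these was called, and the smallest adjusted p of a member was 0.244, for Nid1, by the same edgeR test. The adipose list, with 8 of 8 slopes above 0 and a median of 1.10, the macrophage list, with 8 of 8 and 0.26, and the fibroblast list, with 10 of 10 and 0.22, lay on the same side of 0 as the members, and the part of these compartments in the slopes was not tested.

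The wider basement membrane program was read from 7 lists, and 0 genes of any list were called for HET against WT. Of 11 laminin chains, 7 of 11 had a log2 fold change below 0 over all mice and 9 of 11 in batch 2. Lama1 was at 34.3 ± 4.99 CPM over HET kidneys and 36.9 ± 3.21 CPM over WT kidneys (mean ± SD, n = 13 and 11), a log2 fold change of -0.09. Lama5, a chain of the mature glomerular laminin, was at -0.09 over all mice and -0.23 in batch 2. Lamb1, the chain with the highest TPM, was at 0.02. In batch 2 the laminin list had 3 of 11 genes lower at an unadjusted p under 0.05, beside 4.20% of all genes, with a median of -0.10 beside 0.0002 over all genes.

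The 6 collagen IV chains were all below 0 in batch 2 and 4 of 6 were in batch 1. Col4a3 was at 533 ± 46.2 CPM over HET kidneys and 566 ± 22.7 CPM over WT kidneys (mean ± SD, n = 13 and 11), with a log2 fold change of -0.09 over all mice and edgeR p = 0.0493 before adjustment. Col4a4, its partner in the network that Alport syndrome loses, was at -0.07, and Col4a1 of the ubiquitous network at 0.0002. Of 24 other basement membrane components tested of 25, 13 were above 0 and 11 below. Pxdn, the peroxidase that crosslinks collagen IV, was at 49.5 ± 3.90 CPM over HET kidneys and 53.1 ± 4.06 CPM over WT kidneys (mean ± SD, n = 13 and 11), a log2 fold change of -0.10. Thbs1 was at 0.28, and Sparc at 0.009.

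Receptors and anchors gave 8 of 14 above 0 over all mice. Itga1 was at 0.05, Itga6 at 0.07 and Itgb1 at 0.03. Itga8, whose product pairs with that of Itgb1 to bind nephronectin, was described after its values were seen. It was at -0.15 in batch 2 with edgeR p = 0.00752 before adjustment and 0.578 after it, where Npnt was at 0.07. In batch 1 Itga8 was at 0.03, where Npnt was at -0.01.

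Cell surface heparan sulfate proteoglycans gave 4 of 10 above 0, with Sdc4 at 0.05 and Sdc2 at -0.04. The enzymes that build and edit heparan sulfate gave 13 of 24 above 0. Hs3st3a1, a heparan sulfate sulfotransferase, was at 3.16 ± 0.472 CPM over HET kidneys and 2.75 ± 0.248 CPM over WT kidneys (mean ± SD, n = 13 and 11), a log2 fold change of 0.19. Extl2 was at -0.08 and Hs6st1 at 0.03. Proteases that cut the members gave 8 of 15 above 0, with Bmp1 at -0.10, Mmp3 at 0.17 and Mep1a at 0.02.

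Co-variation between mice was measured on log2 CPM with the mean of each genotype and batch removed, so that it shows which genes were high or low in the same kidney. Pearson's r and Spearman's rho had p-values from 100000 permutations within genotype and batch, adjusted over the 21 pairs. The median r was 0.36, 19 of 21 pairs were positive and 5 of 21 passed the threshold. All values share the libraries and their scaling. The share of pairs called among all genes was not measured, so these counts, here and by batch, do not set the members apart.

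Col18a1 and Col15a1 made the tightest pair, with r = 0.86 and rho = 0.80 over 24 libraries (adjusted permutation p = 4.20e-04 and 6.30e-04). The r was 0.92 in batch 2 and 0.82 in batch 1, and 0.86 without the 2 libraries farthest from the median of Col18a1. Agrn followed Col18a1 with r = 0.70 and rho = 0.72 (adjusted permutation p = 0.00714 and 0.00493), at 0.73 in batch 2, 0.65 in batch 1 and 0.65 without the 2 farthest libraries. Agrn with Col15a1 was not called (r = 0.47, adjusted permutation p = 0.0847).

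The other 3 pairs rested more on batch 2. Nid1 with Col15a1 had r = 0.61 and rho = 0.59 (adjusted permutation p = 0.00806 and 0.0236), at 0.83 in batch 2, 0.45 in batch 1 and 0.58 without the 2 farthest libraries. Hspg2 with Agrn had r = 0.60 and rho = 0.55 (adjusted permutation p = 0.00806 and 0.0236), at 0.72 in batch 2, 0.51 in batch 1 and 0.40 without the 2 farthest, of which HET replicate 9 is one. Nid1 with Hspg2 had r = 0.56 and rho = 0.53 (adjusted permutation p = 0.00806 and 0.0271), at 0.80 in batch 2, 0.26 in batch 1 and 0.52 without the 2 farthest. Without HET replicate 9 alone both pairs of Hspg2 were at r = 0.44 and missed the threshold (adjusted permutation p = 0.0798 each), and 3 pairs were called in all. Without WT replicate 7 the count was 8.

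**Figure D4:**
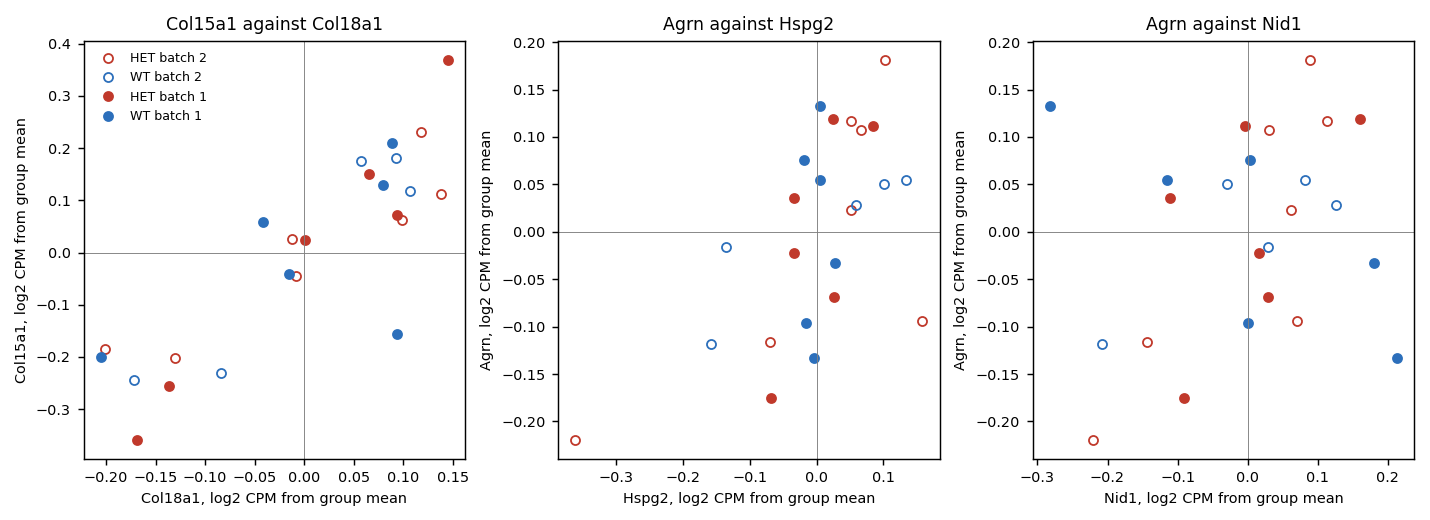
Log2 CPM of 2 genes in each library after the mean of its genotype and batch is removed (both axes), with HET red, WT blue, batch 2 open and batch 1 filled. Col15a1 follows Col18a1 in both batches (r = 0.92 and 0.82), 1 HET library of batch 2 sits far to the lower left for Agrn against Hspg2, and Agrn against Nid1 slopes upward in batch 2 and not in batch 1 (r = 0.78 and -0.31).

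By batch, 7 of 21 pairs were called by r in batch 2 and 0 of 21 in batch 1, each from 12 libraries. By rho only Col18a1 with Col15a1 was called in batch 2 (0.80, adjusted permutation p = 0.0250), and no pair in batch 1. The next smallest adjusted permutation p by rho in batch 2 was 0.0701, as for Nid1 with Agrn. The median r was 0.53 in batch 2 and 0.26 in batch 1. Nid1 and Agrn had r = 0.78 in batch 2 and r = -0.31 in batch 1, and Nid1 and Col18a1 had r = 0.88 in batch 2 and r = 0.06 in batch 1. None of the 6 pairs of Nid2 was called, but with only batch means removed Nid2 with Hspg2 was (r = 0.53, adjusted permutation p = 0.0114), as it was with HET replicate 4 or 13 left out. With Npnt it had r = -0.29 in batch 2 and r = 0.63 in batch 1. Npnt, too, had none of its 6 pairs called, with r from 0.008 with Col15a1 to 0.27 with Nid2. The differences between batches were not tested.

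Scores of 10 cell type and injury lists, each the mean log2 CPM of its markers, showed which marker RNAs moved with each gene. Over 70 relations, 15 passed after adjustment by r, all positive, with 9 called in batch 2 and 6 in batch 1. The share of such relations among all genes was not measured, so the count does not set the members apart. By rho no relation passed in batch 2 (smallest adjusted permutation p = 0.0565). In batch 1 only Col15a1 with the macrophage score passed by rho (adjusted permutation p = 0.00980). Over all mice, rho also called Agrn with the tubular injury score (0.58, adjusted permutation p = 0.0216). It called Hspg2 with the mesangial and smooth muscle score too (0.53, adjusted permutation p = 0.0243). Col18a1 moved with the macrophage score (r = 0.86, rho = 0.81, adjusted permutation p = 2.33e-04 and 9.33e-04), with the fibroblast and interstitial collagen score (r = 0.78) and with the tubular injury score (r = 0.74). Col15a1 moved with the same macrophage (r = 0.84, rho = 0.82), fibroblast (r = 0.78), tubular injury (r = 0.62) and mesangial and smooth muscle scores (r = 0.54), the last of which was not called by rho (0.48, adjusted permutation p = 0.109) or without the 3 doubted libraries. The macrophage relations held in both batches, at r = 0.91 in batch 2 and 0.82 in batch 1 for Col18a1, and at 0.86 in batch 2 and 0.90 in batch 1 for Col15a1. Without the 2 farthest libraries, the macrophage r was 0.85 for both genes.

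The macrophage list summed to a median of 176 CPM in HET (136 to 203) and 181 CPM in WT (139 to 208) in batch 2, and to 124 CPM in HET (108 to 151) and 125 CPM in WT (107 to 144) in batch 1. None of its 8 markers was at 0 in any library. The fibroblast list of 10 summed to a median of 902 CPM in HET (681 to 931) and 968 CPM in WT (675 to 1039) in batch 2, and to 772 CPM in HET (627 to 949) and 685 CPM in WT (606 to 805) in batch 1, with no marker at 0. The RNA of these lists thus varied among kidneys of one genotype, and the part of cell number in the levels of Col18a1 and Col15a1 was not tested.

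Nid1 moved with the mesangial and smooth muscle (r = 0.78, rho = 0.77), endothelial (r = 0.76, rho = 0.68), fibroblast (r = 0.73, rho = 0.75) and macrophage scores (r = 0.59, rho = 0.66), with adjusted permutation p from 0.00230 to 0.0140 for r. The endothelial relation was 0.55 in batch 2 and 0.89 in batch 1. Nid2 moved with the endothelial score (r = 0.58, rho = 0.64, adjusted permutation p = 0.0237 and 0.0123). It also moved with the adipose score (r = 0.59, rho = 0.62, adjusted permutation p = 0.0419 and 0.0222), which was not called without the 3 doubted libraries (r = 0.55, adjusted permutation p = 0.122). The adipose relation of Nid2 was 0.31 in batch 2 and 0.72 in batch 1, and was called in neither batch alone. Hspg2 moved with the endothelial score (r = 0.47, rho = 0.66, adjusted permutation p = 0.00532 and 0.00105), at 0.78 in batch 2 and 0.32 in batch 1.

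Agrn moved with the macrophage score (r = 0.70, rho = 0.68, adjusted permutation p = 0.00467 and 0.00525), at 0.79 in batch 2 and 0.58 in batch 1. Although agrin is made by podocytes, its r with the podocyte score was -0.37 and was not called. Npnt was called with none of the 10 lists, with r from 0.03 for the loop of Henle and distal tubule score to 0.31 for the podocyte score. The podocyte list of 8 was called with none of the 7 genes. Without the 2 libraries farthest from each gene's median, the 15 called relations had r from 0.48, for Hspg2 with the endothelial score, to 0.87, for Nid1 with the mesangial score.

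**Figure D5:**
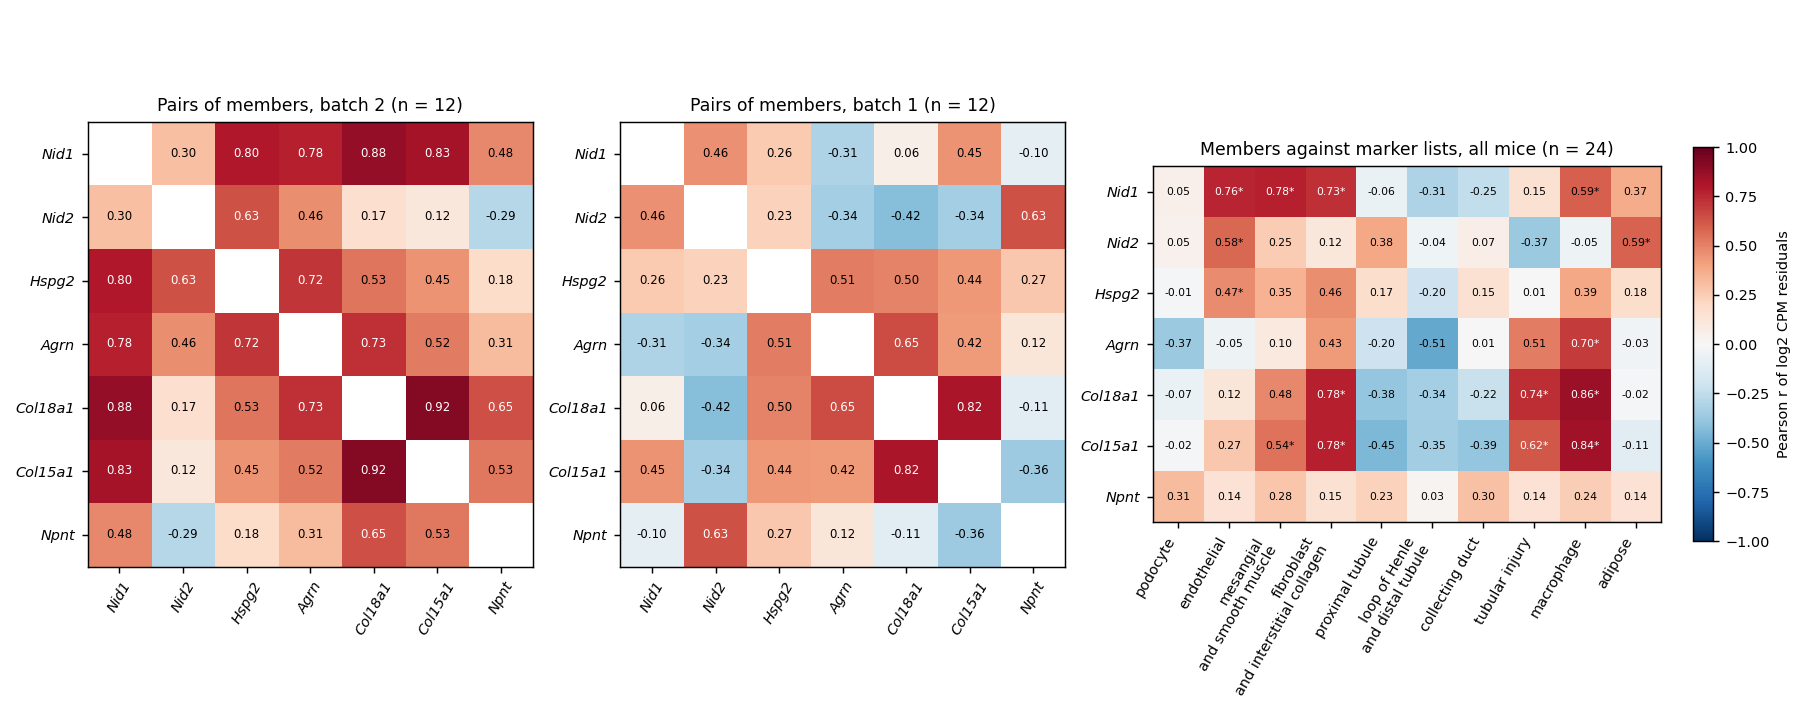
Heat maps of Pearson's r of log2 CPM residuals (colour, blue negative and red positive) for pairs of the 7 genes in batch 2 and in batch 1, and for each gene against 10 marker list scores over all mice, where * marks an adjusted permutation p under 0.05. Batch 2 is redder than batch 1 (median r 0.53 and 0.26), and the strongest marker relations are those of Col18a1 and Col15a1 with the macrophage score.

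The genes most like each member over the 24 libraries, among 15359 genes with a mean of at least 1 CPM, are given by r as a description. Those of Nid1 were Col6a3 (r = 0.92), Ets1 (0.90) and Col14a1 (0.89). Those of Col15a1 were Col3a1 (0.95), Col1a1 (0.94) and Bgn (0.92), of which Col3a1 and Col1a1 are on the fibroblast list, as is Col6a3. Those of Col18a1 were C1qc (0.93), a complement gene that is on the macrophage list, Mmp14 (0.91), a membrane-anchored matrix metalloproteinase, and Slit3 (0.91). The r of Col18a1 with C1qc was 0.94 in batch 2 and 0.92 in batch 1, from the same libraries by which C1qc was chosen.

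Those of Agrn were Jak3 (r = 0.88), Hdac7 (0.87) and Vars (0.87). Those of Hspg2 were Soga1 (0.84), Rab11fip5 (0.83) and Lamb2 (0.83), the laminin beta 2 chain of glomerular and vascular basement membranes. Lamb2 was at 0.89 in batch 2 and 0.81 in batch 1, whereas Soga1 was at 0.95 in batch 2 and 0.28 in batch 1. These batch values come from the same libraries by which the genes were chosen, and are no separate check. Nid2 had Cluh (0.82), Sh3tc2 (0.82) and 4921539H07Rik (0.77) nearest to it, and Npnt had Usp18 (0.78), Gm48558 (0.75) and Mrps23 (0.73). Of all these nearest genes, only Lamb2, near Hspg2, and the protease Mmp14, near Col18a1, were on the basement membrane lists.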

How the data were processed

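Bulk RNA of 24 kidneys was sequenced. The authors deposited 1 table of expected counts, TPM and FPKM per gene. The submitters' processing notes name fastp, STAR and featureCounts with GRCm38 (mm10), with versions, annotation and strand setting not given in the sources used here. Those deposited estimated counts, not whole for 11.8% to 15.4% of genes, were rounded to whole numbers. TPM and FPKM entered as deposited.

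Counts were filtered with filterByExpr (minimum count 10), scaled by TMM and tested with edgeR 4.0.16 in R 4.3.3 (quasi-likelihood, robust), with Benjamini-Hochberg adjustment at 0.05. CPM are TMM-scaled, and log2 CPM use a prior count of 2. Members passed the filter in every fit. Single genes within batches had exact permutation tests. The tests were tried on simulated data. Within genotype and batch, each of 61 library pairs differed beyond counting noise (chi-square per degree of freedom at least 9.48). The titles carry a different number for each library, taken here as 1 mouse each, and say nothing of litters.

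The members, lists and tests were chosen with earlier results of these data known. Besides the members, Nbl1 and the check genes, the rule names from each list the 2 genes of smallest p and the 1 of highest TPM, and for each member the 3 genes of highest r. Alternatives used DESeq2 1.42.0, limma 3.58.1 on log2(TPM + 1), log2(TPM + 0.1) or log2(FPKM + 1), no filter, no batch term, and each library left out.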

Additional observations from a re-analysis of the deposited data

How the results depend on the processing

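No paired analysis was possible because the labels carry no replicate numbers and those used here only follow accession order. No member was called for HET against WT, for the interaction or for the slope on Nbl1 under any alternative, with each library left out included (0 to 0). The count of genes called over all mice was 2 without the 3 doubted libraries. In batch 2 it was 27 by DESeq2, 3 with no filter and 3 with the added CT010467.1 covariate, and 1 to 3 with a library left out. In batch 1 it was 1 by DESeq2, 1 with no filter and 2 without the 3 libraries. For the slope it was 22 by DESeq2, 9 with no filter and 1 to 4 with a library left out. Between batches, 6 to 7 members and 11299 to 11688 genes were called with a library left out. On log2(TPM + 1), 19 pairs and 58 marker relations were called. Pairs called ranged from 3 to 8 with a library left out. By mean FPKM, 3 of 7 genes kept their place in the order of levels. Npnt and Col18a1 changed places, as did Col15a1 and Nid1. Within a library the deposited TPM and FPKM differ by a common factor, so the order there is the same in both. Only the mean over libraries weighs them differently. For the changes in the numbers of genes, members, pairs and relations called, the cause was not tested.

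The following signs turned round, and the cause was not tested. Over all mice Nid1 was at -0.012 by limma on log2(FPKM + 1). Col18a1 was at -0.0080 with no filter, -0.015 without the 3 libraries, -0.045 on log2(TPM + 1), -0.061 on log2(FPKM + 1) and -0.045 on log2(TPM + 0.1). Col15a1 was at -0.0055 without the 3 libraries. Npnt was at -0.0094, -0.025 and -0.0090 on those 3 log scales. Agrn in batch 1 was at -0.036 without the 3 libraries. Col18a1 and Col15a1 in batch 2 were each at 0.028 with the covariate. The r of Nid2 on log2(TPM + 1) was 0.42 with Col18a1 and 0.30 with Col15a1. With only batch means removed, the r of Npnt was -0.031 with Hspg2 and -0.024 with Col15a1. Without the 3 libraries the r of Npnt with Col15a1 was -0.00054.

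With each library left out, the log2 fold change over all mice ranged from -0.027 to 0.029 for Nid1, -0.028 to 0.017 for Col18a1 and -0.040 to 0.039 for Col15a1. In batch 2 it ranged from -0.069 to 0.0067 for Col18a1. In batch 1 the ranges were -0.018 to 0.042 for Agrn, -0.026 to 0.045 for Col18a1, -0.0063 to 0.14 for Col15a1 and -0.037 to 0.023 for Npnt. The interaction of Col18a1 ranged from -0.078 to 0.0074. The r of Nid2 ranged from -0.13 to 0.12 with Agrn and from -0.26 to 0.027 with Col15a1, and that of Col15a1 with Npnt from -0.11 to 0.16. With 5 to 7 kidneys per genotype and batch, the intervals given for each gene show the precision reached.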
